A study of Lates calcarifer with 24 samples.

Results

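Liver transcripts for protein translocation, protein folding and a secreted protein were followed across the feed groups of Asian seabass (Lates calcarifer) fed baitfish or commercial pellets. The genes were ssr1 (signal sequence receptor alpha), p4hb (prolyl 4-hydroxylase beta subunit, also known as protein disulfide isomerase) and serpina1 (alpha-1 antitrypsin). They were chosen as the probes that the study's table of genes tested by quantitative PCR pairs with these symbols, which gave 3 of the 60080 probes on the array and 3 of the 15 probes that carry a symbol at all. The study picked these genes on the arrays of Groups A to D, so the values of these genes in those groups are given as a description, with no test. Among the 6 groups, the means of all 3 genes were lowest in Group D. Group B was next lowest, and its arrays overlapped those of Group D for every gene. In Group D the mean of serpina1 was 2.075-fold lower than in the baitfish-fed fish, that of p4hb was 1.93-fold lower and that of ssr1 was 1.49-fold lower.

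Liver RNA was taken from juveniles that weighed 77.3 g ± 22.4 at 107 days post-hatch and were then fed for 61 days, to 168 days post-hatch. Group A, the control, received frozen baitfish, and Groups B to F each received a different commercial pellet. The fish of every group were siblings of a single pair cross. Each group had 4 Agilent arrays, 24 in all. The labels give only a group and a number, and an array is called a fish here for short. The methods mention RNA from more individuals per feed than that, and whether an array holds 1 fish or a pool was not stated. The groups share genetic background, and the p-values cover only the spread between samples of 1 cross. Each feed was given to several canvas enclosures, and the labels do not say which canvas an array came from. The p-values therefore take no account of the canvas. The study left Groups E and F out of its transcriptome comparisons, the former because that feed came in a single pellet size and the latter because its fish took a smaller ration. Group letters here follow the sample labels. Whether the arrays labelled E and F are the ones the study set aside was not tested, so all labelled groups are given side by side. If they are not, the genes were chosen partly on them.

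The endoplasmic reticulum is where secreted proteins enter the export route of the cell. A ribosome docks on the Sec61 channel, and the translocon-associated protein complex beside it, of which Ssr1 is the alpha subunit, helps many nascent chains through the membrane. Inside, protein disulfide isomerase, encoded by p4hb, forms and rearranges disulfide bonds. The same protein serves as the beta subunit of the enzyme that hydroxylates collagen prolines. Hepatocytes make a large share of plasma proteins, and in mammals alpha-1 antitrypsin, the product of SERPINA1, is an abundant one that inhibits neutrophil elastase. These roles were established mainly in species other than fish.

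The only sequences of these transcripts in the sources used here are the primers that the study designed for them. They are shown because they tie each symbol to a stretch of seabass transcript, which the probe names on the array do not. Each is written 5′ to 3′, in lower case throughout, and is 20 bases long.
p4hb forward primer: cttcgaggaagtcgcctttg
p4hb reverse primer: caatggtgtcagcactgtcc
ssr1 forward primer: tcggcctcgttatccttctc
ssr1 reverse primer: cgtccagtccctcttctctc
serpina1 forward primer: cacacaaggcagacttccac
serpina1 reverse primer: gtggtgtggttgtcactgtc
The array probes themselves are CUST_4282_PI428621111 for p4hb, CUST_13109_PI428621111 for ssr1 and CUST_8042_PI428621111 for serpina1, with 1 spot each.

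Signals were one-colour fluorescence intensities, quantile-normalized over the 24 arrays and taken to log2, so a difference of 1 is a 2-fold change. All 3 probes were well above background on 24 of 24 arrays and saturated on 0 of 24. Between 20.4% and 36% of the spots of an array passed that limit. There were 3 slides of 8 arrays, and slide 1 was dimmer before normalization, with 75th percentiles of 22.2 to 32.9, than slides 2 and 3, with 42.4 to 80.2. Every group had arrays on every slide, but the slide that held 2 of its 4 arrays was slide 1 for Groups A and B, slide 2 for Groups C and D and slide 3 for Groups E and F. No probe levels were set against each other, because brightness depends on the probe. The label of liver was set beside hepatocyte genes, with no test. The study chose these genes on its liver arrays, and no marker of another organ was looked at. The 2 hepatocyte genes with a symbol, serpina1 and lbp (lipopolysaccharide binding protein, secreted by hepatocytes), were well above background on 24 of 24 arrays. In all, 7963 of the 60080 probes passed that limit on every array. In a whole liver sample, fewer cells of a type and less RNA per cell cannot be told apart.

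The translocation gene ssr1 was lower in Groups B and D than in Group A and close to it in Groups C, E and F. In Group A its log2 signal was 11.92, 12.39, 12.15 and 12.10 in replicates 1 to 4, with a mean of 12.14 ± 0.19 (SD, n = 4). In Group B the values were 11.26, 11.61, 11.71 and 12.13, with a mean of 11.68 ± 0.36. In Group D they were 11.39, 11.38, 11.41 and 12.07, with a mean of 11.56 ± 0.34. Thus 3 of 4 fish in Group B and 3 of 4 in Group D lay below the lowest control, and in both groups replicate 4 lay inside the control range. Group C gave 11.69, 11.93, 12.11 and 12.38, with a mean of 12.03 ± 0.29. Group E gave 11.59, 12.16, 12.49 and 12.36, with a mean of 12.15 ± 0.40. Group F gave 11.53, 12.60, 12.46 and 12.40, with a mean of 12.25 ± 0.48. Each of these 3 groups had its lowest fish in replicate 1, below every control, while the other fish lay within or above the control range. The difference of Group B from Group A was -0.46 ± 0.20 (SE), that of Group C was -0.11 ± 0.17, and Group D differed by -0.58 ± 0.20, all on the log2 scale. The means ran from Group F through E, A, C and B to Group D. Neighbours in this order overlapped, and only the step from Group C to Group B, 0.35, was larger than their pooled SD of 0.33.

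For the folding enzyme p4hb, Group D stood apart from the controls. In Group A the log2 signal was 10.99, 10.70, 11.01 and 10.38 in replicates 1 to 4, with a mean of 10.77 ± 0.29 (SD, n = 4). In Group D it was 9.66, 9.71, 9.97 and 9.95, with a mean of 9.82 ± 0.16. All 4 fish of Group D lay below all 4 controls, and they were the most tightly grouped of the 6 sets. In Group B the values were 9.83, 10.06, 10.45 and 10.49, with a mean of 10.21 ± 0.32. In Group C they were 10.42, 10.02, 10.83 and 10.84, with a mean of 10.53 ± 0.39. Replicates 1 and 2 of Group B and replicate 2 of Group C lay below the lowest control, and the others lay inside the control range. Group E gave 10.24, 10.35, 10.86 and 10.71, with a mean of 10.54 ± 0.29. Group F gave 10.26, 10.77, 10.74 and 10.80, with a mean of 10.64 ± 0.26. Replicates 1 and 2 of Group E and replicate 1 of Group F lay below the lowest control, and the other fish overlapped the controls. Relative to Group A, p4hb differed by -0.56 ± 0.22 (SE) in Group B, by -0.24 ± 0.24 in Group C and by -0.95 ± 0.17 in Group D on the log2 scale. From highest to lowest the means ran A, F, E, C, B and D. All neighbours overlapped, and the 1 step larger than the pooled SD was from Group B to Group D, 0.39 against 0.25.

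The secreted product serpina1 differed from Group A by more than the other genes did in Groups B, C, D and F, and by less than p4hb in Group E. In Group A its log2 signal was 17.74, 18.19, 18.39 and 18.52 in replicates 1 to 4, with a mean of 18.21 ± 0.34 (SD, n = 4). In Group D it was 17.07, 16.96, 17.40 and 17.20, with a mean of 17.16 ± 0.19. Again no fish of Group D reached the lowest control. In Group B the values were 17.26, 16.83, 17.53 and 18.07, with a mean of 17.42 ± 0.52. In Group C they were 17.81, 17.69, 17.83 and 17.93, with a mean of 17.82 ± 0.10. Group B spread most widely, with replicate 2 the lowest of all 24 arrays and replicate 4 inside the control range, whereas the fish of Group C lay close together near the lowest control. Group E gave 17.58, 18.30, 18.22 and 18.46, with a mean of 18.14 ± 0.38. Group F gave 17.46, 18.20, 18.11 and 18.35, with a mean of 18.03 ± 0.40. In both groups replicate 1 lay below the lowest control and the other fish lay within the control range. The difference between Groups B and A was -0.79 ± 0.31 (SE), that between Groups C and A was -0.39 ± 0.18 and that between Groups D and A was -1.05 ± 0.19. The means ran from Group A through E, F, C and B to Group D, with overlap between all neighbours, and the step from Group C to Group B, 0.39, was just over the pooled SD of 0.37.

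**Figure D1:**
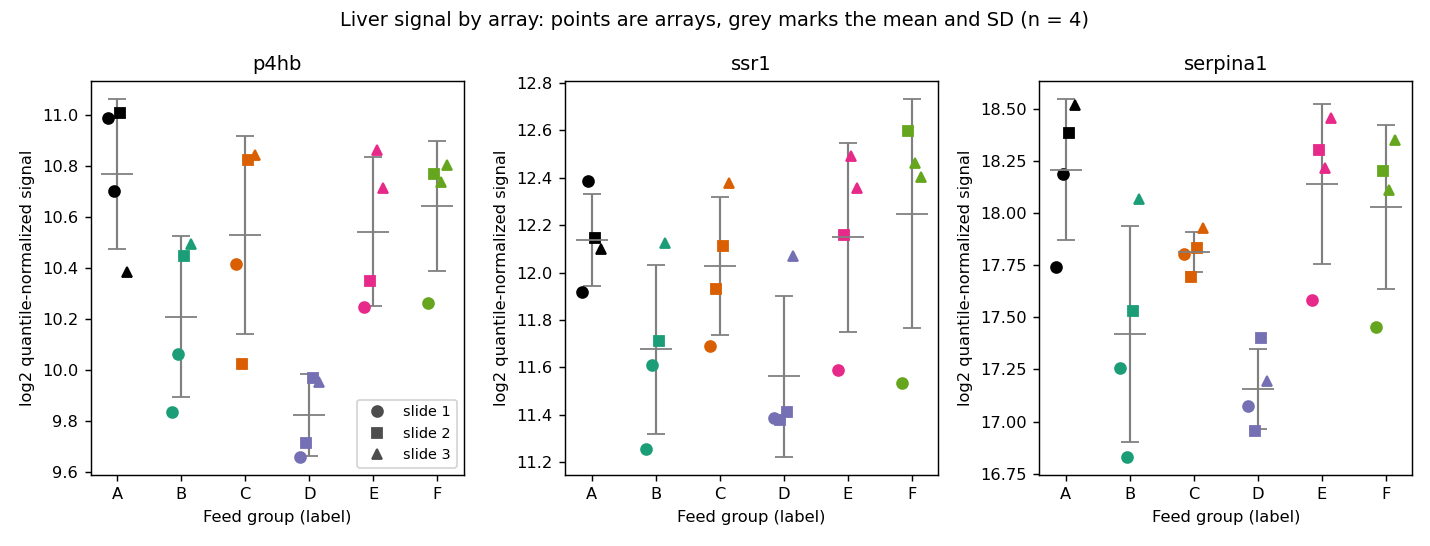
Log2 quantile-normalized liver signal (vertical axis) of p4hb, ssr1 and serpina1 in feed Groups A to F (horizontal axis), with 1 point per array, shaped by slide, and grey bars for the mean and SD of 4 arrays. The Group D points of p4hb (9.66 to 9.97) and serpina1 (16.96 to 17.40) lie below all Group A points, and those of ssr1 do so in 3 of 4 fish.

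The members can be read together against the background of the array. All 4 fish of Group D lay below all 4 controls for 2 of the 3 genes, p4hb and serpina1, where 2.02% of all probes and 5.92% of the 7960 brighter probes, those that passed the background limit on all 24 arrays with no spot left out, did so, but this contrast was among those on which the genes were chosen and nothing is read from that count. In Group B, C, E and F, 0 of the 3 genes were separated from the controls in this way, where 1.32%, 0.889%, 1.65% and 1.07% of all probes lay wholly below. Among the brighter probes these shares were 3.78%, 2.11%, 3.93% and 2.8%. With shares this small, nothing is read from 0 of 3. Group D was also wholly below Group C for p4hb and serpina1, as were 0.824% of all probes and 2.49% of the brighter ones, with differences of -0.71 and -0.66. It overlapped Group B for every gene, where 0.722% of all probes and 2.16% of the brighter ones lay wholly below. Its differences from Group B were -0.39 ± 0.18 (SE) for p4hb, -0.11 ± 0.25 for ssr1 and -0.26 ± 0.28 for serpina1. The control array that set the lowest level differed by gene. It was replicate 4 for p4hb and replicate 1 for ssr1 and serpina1. Fish that were low for every gene, that is below the lowest control for all 3, numbered 2 of 4 in Group B, 0 of 4 in Group C, 3 of 4 in Group D, 1 of 4 in Group E and 1 of 4 in Group F. Those of Groups B, E and F were all on slide 1, the dimmer slide before normalization, as was replicate 1 of Group D. Replicates 2 and 3 of Group D were on slide 2. The part of the slide in these counts was not tested, nor were other sets of 3 probes counted. Replicate 4 of Group D was low for p4hb and serpina1 and not for ssr1. The median of all probes lay between -0.0141 and -0.0046 from Group A in every pellet-fed group, a shift that quantile normalization keeps small by construction.

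**Figure D2:**
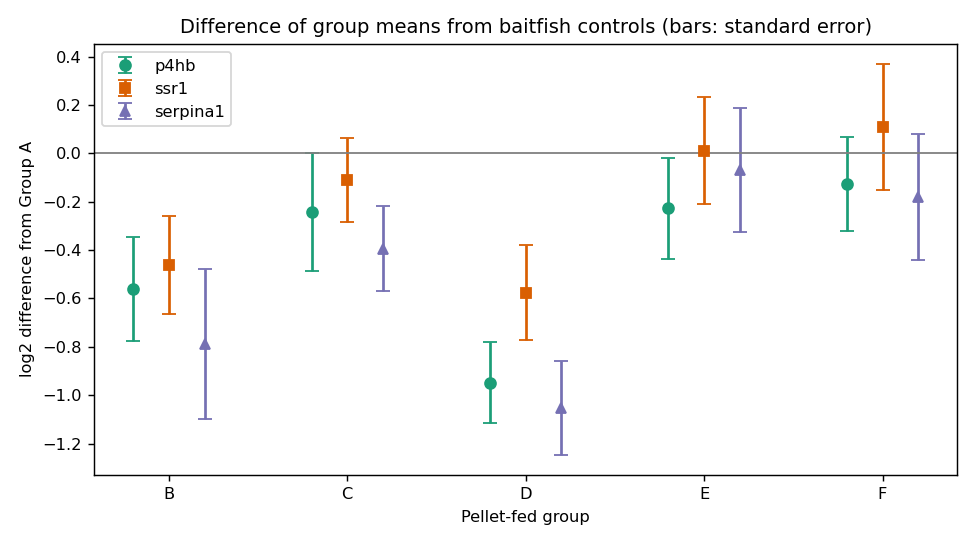
Difference of each pellet-fed group's mean from Group A on the log2 scale (vertical axis) for Groups B to F (horizontal axis) and the 3 genes, with bars for the standard error from 4 arrays a group. All 3 genes have their lowest point in Group D, at -0.95 for p4hb, -0.58 for ssr1 and -1.05 for serpina1, and the bars of Groups E and F cross 0 except for p4hb in Group E.

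Groups E and F, which by their labels lie outside the study's choice of genes, allowed a test, although it shares the control arrays with that choice. In limma's fit of all 24 arrays, 17 of 60080 probes (0.0283%) passed an adjusted p of 0.05 between Groups E and A and 23 (0.0383%) between Groups F and A. None of the 3 genes was among them. For p4hb, Group E differed from Group A by -0.23 (95% interval -0.66 to 0.20, adjusted p = 0.896 by limma) and Group F by -0.13 (-0.56 to 0.30, adjusted p = 1). For ssr1, the differences were 0.01 (-0.51 to 0.53, limma adjusted p = 1) in Group E and 0.11 (-0.41 to 0.63, adjusted p = 1) in Group F. For serpina1, they were -0.07 (-0.58 to 0.44, limma adjusted p = 1) in Group E and -0.18 (-0.69 to 0.33, adjusted p = 1) in Group F. Every interval holds 0. A p that misses the threshold does not show that Groups E and F had the control level. Between Groups E and F, 0 of 60080 probes (0%) passed in limma, and the methods' t-test called 0 after adjustment. An unadjusted p below 0.05 by limma was found for 2635 probes (4.39%), a share no larger than that threshold. The 3 genes differed between them by -0.10 for p4hb (-0.53 to 0.33), -0.10 for ssr1 (-0.62 to 0.42) and 0.11 for serpina1 (-0.40 to 0.62).

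Set against Group D, Groups E and F were higher. All 4 fish of Group E lay above all 4 of Group D for p4hb, by 0.72 in the mean, and for serpina1, by 0.98, where 1.48% of all probes and 4.69% of the brighter ones were separated in this direction. Group F lay wholly above Group D for the same 2 genes, by 0.82 and 0.87, where 1.02% of all probes and 2.25% of the brighter ones did so. For ssr1, replicate 1 of either group lay within the range of Group D. Group D was used to choose these genes, so these values are a description with no test.

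Same-numbered arrays of Groups A and B, of Groups C and D and of Groups E and F lay on the same slide. They deviated together in all 4 pairs, so these groups were also compared within pairs, as a description. Replicates 1 and 2 of Groups A and B shared a slide, as did replicates 2 and 3 of Groups C and D and 3 and 4 of Groups E and F. For these replicates the slide does not fix which arrays make a pair, and the pairing rests on the number alone. Over all pairs of groups, deviations of same-numbered arrays correlated between -0.0437 and 0.639 where they shared a slide. Where they lay on different slides, r ran from -0.433 to 0.345. Whether the number links arrays beyond their shared slide was not tested. Group D lay below Group C in 4 of 4 pairs for every gene. For p4hb and serpina1 the groups did not overlap, so any pairing would give that count. How many of all probes lay lower in 4 of 4 pairs was not counted, for these groups or the others. The difference was -0.76, -0.31, -0.86 and -0.89 for p4hb in replicates 1 to 4, with a mean of -0.71 ± 0.13 (SE within pairs). For serpina1 it was -0.73, -0.74, -0.43 and -0.73, with a mean of -0.66 ± 0.0764. For ssr1, whose groups overlapped, it was -0.30, -0.55, -0.70 and -0.31, with a mean of -0.46 ± 0.0969 (0.22 without the pairing). Group B lay below Group A in 4 of 4 pairs for serpina1, by -0.49, -1.36, -0.86 and -0.45 (SE within pairs 0.21), and in 3 of 4 pairs for p4hb and for ssr1, replicate 4 being the exception in both. Between Groups F and E, serpina1 was lower in Group F in 4 of 4 pairs, with differences of -0.13, -0.10, -0.11 and -0.11. Their mean was -0.11 ± 0.0063 (SE within pairs, 0.28 without the pairing). Both the count and the SE within pairs rest on the numbers of replicates 3 and 4. Replicate 4 of Group F, at 18.35, lay above replicate 3 of Group E, at 18.22, on the same slide. In contrast, p4hb was lower in Group F in 1 of 4 pairs and ssr1 in 2 of 4. In limma's fit with the replicate number as a block, serpina1 did not pass between these groups (adjusted p = 1). That fit gives all 6 groups the same effect of each number, so it is not a test within the pairs of Groups E and F. No such test was run.

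Levels of all 3 genes also differed between slides. Over the 8 arrays of each slide, the mean of p4hb was 10.27 on slide 1, 10.39 on slide 2 and 10.60 on slide 3. That of ssr1 was 11.67, 11.93 and 12.30, and that of serpina1 was 17.49, 17.79 and 18.11. The mean of slide 1 was thus the lowest and that of slide 3 the highest for every gene. The slides held different numbers of arrays from each group, so these means mix slide with feed group. Replicate 1 of Groups E and F, the lowest fish of each for every gene, was the only array of its group on slide 1. Differences from the controls of the same slide rest on 1 or 2 arrays a group. Group D was lower than Group A on all 3 slides for every gene. For p4hb and serpina1 this had to be so, because every fish of Group D lay below every control. For p4hb the differences on slides 1, 2 and 3 were -1.19, -1.17 and -0.43. For ssr1 they were -0.77, -0.75 and -0.03. For serpina1 they were -0.89, -1.21 and -1.32. On slide 3 the gap was smallest for p4hb, close to 0 for ssr1 and widest for serpina1.

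In the other groups the slides differed in sign for p4hb and ssr1. Group B was lower on slides 1 and 2 for p4hb, by -0.90 and -0.56, and above the control of slide 3 by 0.11. For ssr1 the same group gave -0.72, -0.44 and 0.03. Group C gave -0.43, -0.58 and 0.46 for p4hb. The slide 3 control, replicate 4 of Group A, was the lowest control for p4hb. For serpina1, in contrast, each of Groups B to F lay below the controls of its own slide on all 3 slides. The slide 3 control, replicate 4 of Group A, had the highest serpina1 signal of all arrays, 18.52, so every group had to lie below it. The only slide 2 control, at 18.39, was above every other array of its slide. All groups were set against these same controls, so their shared sign is not independent between groups. On slides 1, 2 and 3 the differences of serpina1 were -0.92, -0.86 and -0.45 for Group B and -0.16, -0.62 and -0.59 for Group C. Those for Group E were -0.38, -0.08 and -0.18, and those for Group F were -0.51, -0.18 and -0.29. No other gene of the 3 kept 1 sign in all groups and slides. Without the 8 arrays of slide 1, a setting added after seeing the data, ssr1 in Group B differed from Group A by -0.20 in place of -0.46, and p4hb in that group by -0.23 in place of -0.56. In Group C the same setting moved p4hb from -0.24 to -0.13 and serpina1 from -0.39 to -0.62, and ssr1 turned from -0.11 to 0.0155. Single arrays also set the Group C values. Its ssr1 difference ranged from -0.23 without Group C replicate 4, over -0.18 without Group A replicate 1 and -0.0284 without Group A replicate 2, to 0.00127 without Group C replicate 1, and was -0.188 with slide as a block. Its p4hb difference was -0.0743 without Group C replicate 2 and -0.37 without Group A replicate 4. The part of the slide in these differences was not tested beyond the alternatives in the closing section.

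**Figure D3:**
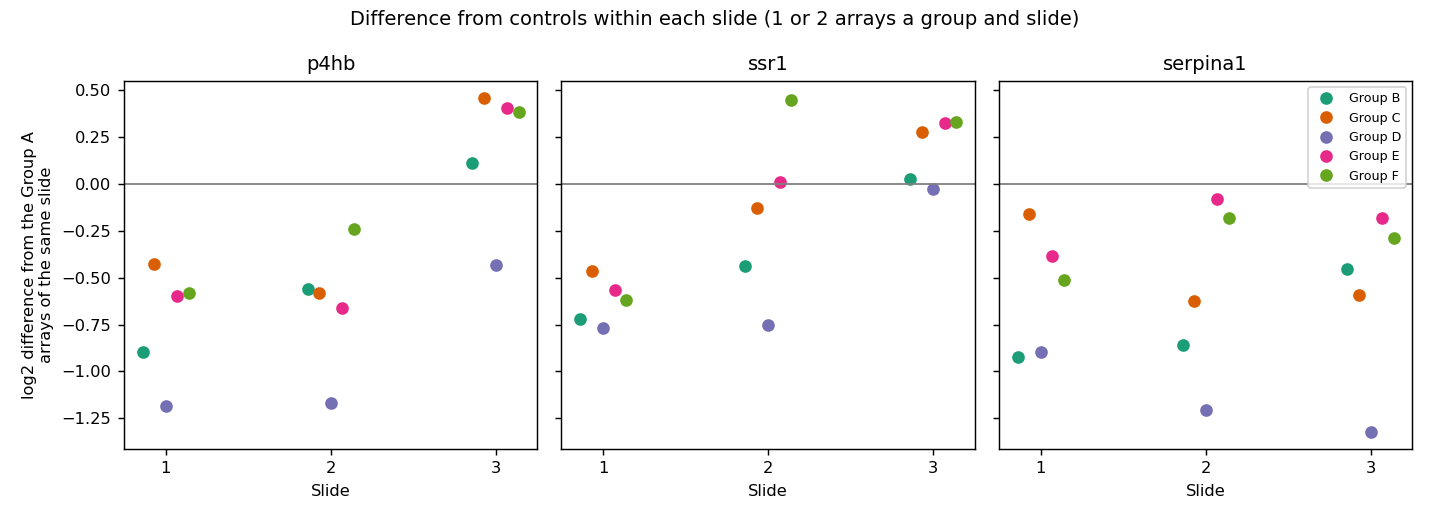
Log2 difference of each pellet-fed group from the Group A arrays of the same slide (vertical axis) by slide (horizontal axis), for the 3 genes, with 1 point per group and slide resting on 1 or 2 arrays of each group. Group D lies below 0 in every panel and slide, close to 0 for ssr1 on slide 3 (-0.03), and every group lies below 0 for serpina1. The sign of Group D was fixed for p4hb and serpina1, whose Group D arrays all lie below all controls. The slide 3 control had the highest serpina1 signal of all arrays.

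The 3 genes varied together from array to array. Over 24 arrays, Pearson's r was 0.786 between p4hb and ssr1 (Spearman's rho 0.751), 0.771 between p4hb and serpina1 (0.707) and 0.805 between ssr1 and serpina1 (0.797). These are descriptions without a test, because the arrays share feed groups, slides, 1 normalization and the choice of the genes. With each slide's mean removed, r was 0.791, 0.743 and 0.726 for these pairs. With each group's mean removed, r was 0.664, 0.473 and 0.681. So the arrays of 1 group that were low for ssr1 tended to be low for the other genes, and the pair of p4hb and serpina1 was the least alike. Means of slide and group were not removed together, and the means of all 3 genes were lowest on slide 1 and highest on slide 3. The part of the slide in this likeness within groups was not tested. Among the 7959 other probes well above background on all arrays, ssr1 ranked 8 by likeness to p4hb and 40 by likeness to serpina1, counting from the most alike. By likeness to ssr1, p4hb ranked 33 and serpina1 ranked 18. For the remaining pair, serpina1 ranked 13 by likeness to p4hb and p4hb ranked 65 by likeness to serpina1. These ranks fell back once each group's mean was removed. By likeness to p4hb, ssr1 then ranked 38 and serpina1 367. The corresponding ranks of p4hb and serpina1 by likeness to ssr1 were 374 and 314, and those of p4hb and ssr1 by likeness to serpina1 were 993 and 303. Many other bright probes were thus more alike than these genes within the feed groups.

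**Figure D4:**
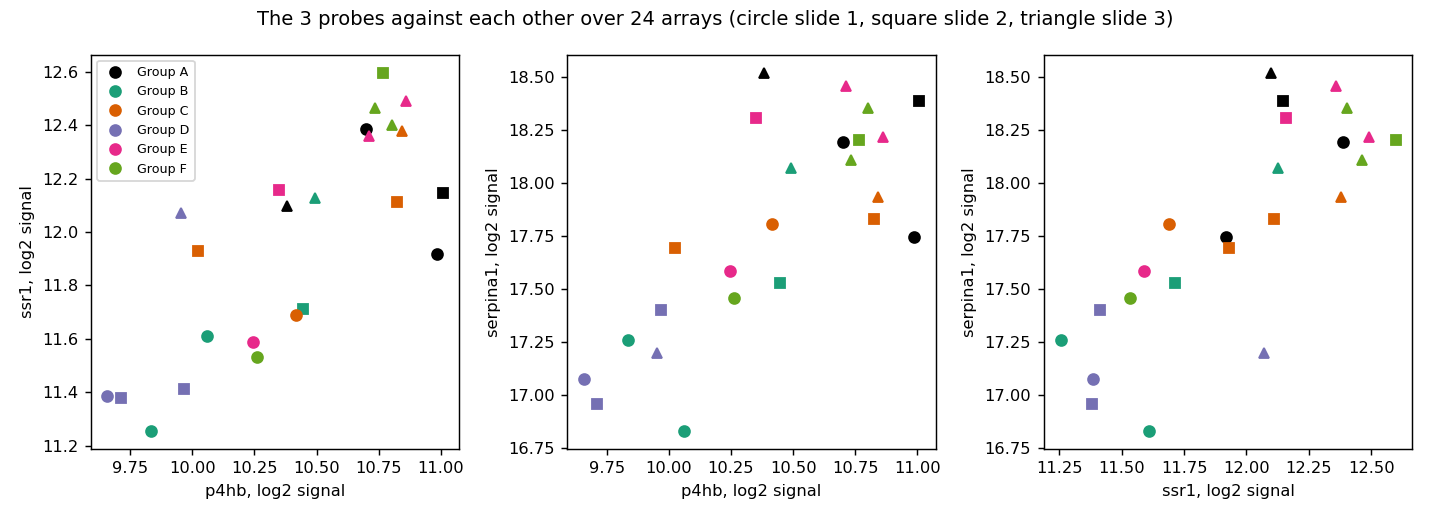
Log2 signals of the genes plotted pairwise over 24 arrays, coloured by feed group and shaped by slide, with both axes in log2 units. Points rise together in all 3 panels (r 0.786, 0.771 and 0.805), with Group D mostly at the lower left and the slide 3 array of Group D high for ssr1 (12.07).

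Probes whose pattern over the 24 arrays was most like each gene are known by design number only. Nearest to serpina1 was CUST_54449_PI428621111, with r = 0.924, followed by CUST_5689_PI428621111 with 0.917 and CUST_33313_PI428621111 with 0.882. For ssr1 the 3 nearest were CUST_7972_PI428621111 with 0.889, CUST_5942_PI428621111 with 0.88 and CUST_20265_PI428621111 with 0.878. For p4hb they were CUST_53549_PI428621111 with 0.848, CUST_28673_PI428621111 with 0.83 and CUST_52215_PI428621111 with 0.821. With each slide's mean removed, 1 of the 3 named for serpina1, 1 of those for ssr1 and 2 of those for p4hb stayed among the top 3, and with each group's mean removed none did, with ranks from 5 to 50. The leading places therefore depend on how slides and groups are treated. Other genes of translocation, folding and glycosylation could not be counted, since only 15 probes carry a symbol and the reference gene table lists none of the transcript names of these nearest probes.

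The remaining 12 probes with a symbol mostly differed in the other direction. Relative to Group A, 11 of 12 had a higher mean in Groups B, D, E and F and 12 of 12 in Group C, with no test. The study picked most of these genes on the arrays of Groups A to D as well, while fads2 and elovl5 were added as genes known to respond to dietary fatty acids. The 1 exception was aldh1l1, a folate enzyme, whose difference from the controls was -1.67 in Group D and -0.47, -0.50 and -0.12 in Groups B, E and F. The other secreted hepatocyte product, lbp, was above its control mean by 2.35 in Group D and by 1.69, 1.27, 1.502 and 1.08 in Groups B, C, E and F. The means of the 2 hepatocyte genes thus lay on opposite sides of the control mean, each furthest in Group D. For serpina1 the differences in Groups E and F were small (-0.07 and -0.18), with 95% intervals that hold 0. Their sign changed in some fits that left out 1 array. Of the 2 myeloid markers with a symbol, acp5a (an acid phosphatase of macrophages and osteoclasts) was well above background on 1 of 4 arrays of Group A and 4 of 4 in every other group. Its mean log2 signal was lowest in Group A, at 5.38, and highest in Group D, at 8.10, with 7.14, 6.88, 6.56 and 6.601 in Groups B, C, E and F. The other, tlr8a (a receptor for viral RNA in endosomes), was above background on 0 of 4 arrays in Group A and on 3, 4, 4, 3 and 1 of 4 in Groups B to F. Its mean log2 signal was 3.93, 6.24, 5.79, 6.36, 5.60 and 5.02 in Groups A to F. The summed linear signal of the 2 myeloid markers, in which acp5a has the larger part, ran from 51.8 to 63.7 over the arrays of Group A and from 309 to 435 in Group D. In Groups B, C, E and F it ran from 191 to 256, 120 to 231, 73.2 to 237 and 98.8 to 236. Thus the means of the myeloid markers and lbp were highest in Group D, where those of the 3 genes were lowest. Only for acp5a did all arrays of Group D lie above those of every other group. For tlr8a they overlapped those of Groups B and E, and for lbp those of Groups B, E and F. The part of other cell types in these differences was not tested.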

How the data were processed

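Liver RNA of 24 samples was hybridised to one-colour Agilent arrays by the authors, who extracted the scans with Feature Extraction and normalized them in Partek. The deposited scanner files give an intensity per spot, after background subtraction by the scanner software, with flags of another kind for outliers, saturation and signal well above background. The deposited processed values are log2 values, used only as an alternative, and 0 of their columns were left unmatched. The deposited scans were the start of the analysis. Control spots and outlier spots were left out, repeat spots were averaged, and the processed signals were quantile-normalized over 24 arrays and taken to log2.

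Feed group came from the labels and was the only factor in limma 3.58.1 (R 4.3.3), with Benjamini-Hochberg adjustment over 60080 probes in each comparison and a threshold of 0.05. The fit shares 1 spread over 6 groups. Slides were read from the scanner headers. The number of arrays, 4 a group, limits the precision. Same-numbered arrays lay on the same slide, and their deviations from the group means correlated over 0.1 in every pair, for Groups A and B (0.159 to 0.468), C and D (0.37 to 0.583) and E and F (0.145 to 0.396). Only these groups were compared within pairs. Correlations between arrays of the same slide with different numbers were not computed, so a link by number cannot be told apart from the shared slide. R's data.table (version 1.17.8) and Python 3.11.15 with numpy 2.4.6, pandas 2.3.3 and matplotlib 3.10.9 read the tables and drew the figures.

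The genes, lists and tests were chosen with earlier results of these data known. The 3 genes are always named. Other genes with a symbol are named only where a result turns on them, and the 3 probes most like each gene by Pearson's r, among probes well above background on all arrays, are named by design number. Marker lists were serpina1 and lbp for hepatocytes and acp5a and tlr8a for myeloid cells. Alternatives were other scalings, normexp background correction with an offset of 50, the deposited values, outlier spots kept, removal of dim probes, blocks for slide, for replicate number and for both, the methods' t-test and leaving out each array. The study's quantitative PCR values and its own fold changes hold its findings and were not used.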

Additional observations from a re-analysis of the deposited data

Results flagged for a closer look

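Within the 18 sets of 4 arrays (3 genes in 6 groups), 2 held an array far from the others by Dixon's test at the 95% level, which marks about 1 set in 20 by chance. For p4hb, replicate 1 of Group F had a log2 signal of 10.26, against 10.74 to 10.80 in the other fish of that group. Its gap was 0.874 of the group's range, and it is the group's only array on slide 1. For ssr1, replicate 4 of Group D had a log2 signal of 12.07, against 11.38 to 11.41 in the others. Its gap was 0.951 of the range, and it is the group's only array on slide 3.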

How the results depend on the processing

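The lower means of Group D held in every alternative run. Its difference from Group A stayed between -1.07 and -0.82 for p4hb, -0.79 and -0.50 for ssr1 and -1.44 and -1.05 for serpina1. The value of -1.44 came from scaling each array to the 75th percentile of all its probes, against -1.05. Of 162 alternative values of the described differences, 160 stayed within the spread between replicates and 2 moved. The other was p4hb in Group B against A, -0.23 against -0.56 without slide 1, a setting added after seeing the data. Leaving out 1 array at a time gave Group D ranges of -1.08 to -0.87 for p4hb, -0.75 to -0.49 for ssr1 and -1.20 to -0.94 for serpina1.

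Of 180 alternative values of the tested differences, 163 kept their sign, 17 reversed and none passed the test, with a lowest adjusted p of 0.645 by limma. The difference of ssr1 between Groups E and A, 0.01 as reported, was -0.0056 with normexp, -0.0105 with the deposited values, -0.14 with slide as a block and -0.0729 with slide and replicate block. That of ssr1 between Groups F and A was -0.0372 with slide as a block, and that of p4hb between Groups F and A was 0.0732 without slide 1. Leaving out 1 array at a time gave ssr1 ranges of -0.10 to 0.20 (E against A), -0.0077 to 0.35 (F against A) and -0.34 to 0.0879 (E against F). For serpina1 the ranges were -0.22 to 0.12, -0.33 to 0.0112 and -0.0801 to 0.30, and for p4hb -0.36 to -0.13, -0.26 to -0.000997 and -0.23 to -0.00012. With the 75th percentile of all probes, that of bright probes and slide as a block, serpina1 differed by -0.22, -0.24 and -0.215 between Groups E and A (-0.07 as reported) and by -0.37, -0.41 and -0.325 between Groups F and A (-0.18). The cause was not tested.

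Counts of calls depended more on the setting. Between Groups E and A the 17 calls became 5 with the 75th percentile of all probes, 3 with that of bright probes, 2 with normexp, 3 with the deposited values, 103 after a filter on dim probes, 97 without slide 1 and 0 with the methods' t-test, and ranged from 3 to 226 when 1 array was left out (226 without Group E replicate 2, 84 without Group A replicate 4, 72 without Group A replicate 2, 3, 6 and 7 without Group E replicates 4, 1 and 3, 8 without Group A replicate 3). Between Groups F and A the 23 calls became 14 with the 75th percentile of all probes, 5 with only the compared arrays, 39 after the filter, 44 without slide 1 and 4 with the t-test, and ranged from 15 to 60 when 1 array was left out (60 without Group A replicate 4, 39 without Group F replicate 1, 37 without Group A replicate 2, 15 without Group A replicate 1). Between Groups E and F the 0 calls became 8 without slide 1 and 0 to 6 when 1 array was left out (6 without Group F replicate 1, 3 without Group F replicate 2, 2 without Group F replicate 4, 1 without Group E replicate 2).

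All groups hold the same replicate numbers, so the replicate block alone cannot move a difference. Between Groups E and F it changed no call. Group A shared a slide with either group in 2 of 4 numbers, and the correlation was over 0.1 in 9 of 12 pairs among Groups A, E and F (-0.107 to 0.475), so the numbers were not taken to pair Group A with them. With the replicate block the calls became 33 between Groups E and A and 44 between Groups F and A, and with slide and replicate block together 6 between Groups E and A.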
